A study of Mus musculus with 14 samples.

Results

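Apolipoproteins are the protein components of plasma lipoproteins, the particles that carry cholesterol and triglyceride in blood. The mRNAs of 10 of them, Apoa1, Apoa2, Apoa4, Apoa5, Apob, Apoc1, Apoc2, Apoc3, Apoe and Apom, were followed in mouse liver by their gene symbols, out of 17656 genes that each expression table lists. The 14 livers came from 4 groups: 3 WT mice given saline, 3 mice labelled Ythdf1-/- given saline, 4 WT mice given concanavalin A (ConA) and 4 mice labelled Ythdf1-/- given ConA, named WT or KO saline and WT or KO ConA in what follows. ConA is a plant lectin that activates T cells and causes an acute hepatitis in mice. It was injected into the tail vein at 8 mg/kg, the mice were 8 weeks old, and every liver was taken 8 h after ConA or saline. The study describes male mice on a C57BL/6 background whose Ythdf1 gene, which encodes a reader of the m6A mark on mRNA, had been deleted in the whole body with CRISPR/Cas9, so the deletion is not confined to hepatocytes. A single dose and a single time point were sampled.

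Hepatocytes make most plasma apolipoproteins. Apob is the structural protein of very low density lipoprotein (VLDL), Apoa1 and Apoa2 are the main proteins of high density lipoprotein (HDL), and Apoe carries remnant particles to their receptors. The small C apolipoproteins and Apoa5 set how fast lipoprotein lipase clears triglyceride, and the mRNAs of several of these proteins are known to fall in the liver during an acute-phase response.

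Values are TPM, a gene's share among 1000000 transcripts of a library, so levels are per transcript length and can be compared between genes, but the number of reads behind them is unknown. Under saline, Ythdf1 mRNA stood at 12.03 to 13.92 TPM in WT and 18.4 to 20.8 in KO livers, and after ConA at 18.7 to 25.6 in WT and 15.5 to 26.2 in KO livers, which goes against an absent transcript in the livers labelled KO. Which part of the gene was deleted is not given in the sources used here, so a whole-gene value does not settle the label, and KO below means a library labelled Ythdf1-/-. Replicates 2 and 3 of WT saline hardly differed, with a median size of their log2 ratio of 0.0793 over genes against 0.128 to 0.397 in the other pairs of 1 group, although the labels call them separate mice. WT ConA replicate 3 and KO ConA replicate 3 stood apart from their groups. Their median ratios to the geometric mean of all libraries were 0.791 and 0.847, the lowest of the 14, and each had the highest level of its group for 6 of the 10 apolipoproteins. Of the 8 hepatocyte markers, 7 were called lower after ConA in WT livers and 8 in KO livers, and they summed to 103800 to 118900 TPM in WT and 97190 to 107700 in KO livers given saline, and 53450 to 72610 in WT and 45280 to 57080 in KO livers given ConA, and 6 of 7 monocyte and neutrophil markers tested were called higher in both genotypes, with sums of 5.93 to 11.9 TPM in the saline livers and 320.4 to 948.3 after ConA. Retnlg and Ly6c2 are among these calls, but too few saline livers reached the TPM filter for either to be tested between the saline groups. Both therefore entered the ConA comparisons through ConA livers, and their calls are not read as a result. Among all genes tested, 31.0% were called lower and 22.0% higher after ConA in WT livers, and 30.7% and 33.9% in KO livers. The 6 T cell markers in the tables summed to 1.01 to 4.65 TPM in all livers. The part of either shift in the values below was not tested. In whole liver, fewer cells of a type and less RNA per cell cannot be told apart.

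By RefSeq, the 10 genes lie at 5 places in the GRCm38.p6 mouse genome. Apoa1 (chr9:46228630-46230469, plus strand), Apoc3 (chr9:46233050-46235636, minus strand), Apoa4 (chr9:46240844-46243458, plus strand) and Apoa5 (chr9:46268608-46271921, plus strand) are neighbours on chromosome 9. Apoc2 (chr7:19671579-19677941), Apoc1 (chr7:19689480-19692659) and Apoe (chr7:19696244-19701310) share the minus strand of chromosome 7. Apoa2 (chr1:171221564-171226379, plus strand), Apob (chr12:7977629-8016839, plus strand) and Apom (chr17:35128997-35131801, minus strand) stand alone. In 7 of them, every stretch of 50 bases of the transcript, the length of the reads, was found in no other gene on either strand. The exceptions are Apoc2, where 11.8% of the stretches occur in no other gene and the rest are shared with the read-through gene Gm44805, and Apoa4 and Apoa5, where 39.1% and 81.6% are free of an antisense gene. Whether counting used strand is not given in the sources used here, so reads in the shared stretches of Apoa4 and Apoa5 cannot be told apart from those of their antisense partners.

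Promoters are shown for Apoa1, Apoa4 and Apoa5, neighbours on chromosome 9 of which Apoa1 and Apoa5 were called lower and Apoa4 higher after ConA in KO livers, and for Apob, which was called higher there. Each RefSeq window of the GRCm38.p6 build runs from 250 bases before a transcription start to 50 bases into the transcript, 5′ to 3′ on the gene's own strand. Capitals mark any of 7 motifs searched on both strands. For nuclear receptors these were AGGTCA and, as part of an HNF4 type repeat, TGACCTTTG. For general promoter elements they were CCAAT and the TATA box TATAAA. For HNF1 the letters were GTTAAT, for STAT factors TTCNNNGAA and for NF-kB GGANTTTCC.
Apoa1, chr9:46228380-46228679, plus strand: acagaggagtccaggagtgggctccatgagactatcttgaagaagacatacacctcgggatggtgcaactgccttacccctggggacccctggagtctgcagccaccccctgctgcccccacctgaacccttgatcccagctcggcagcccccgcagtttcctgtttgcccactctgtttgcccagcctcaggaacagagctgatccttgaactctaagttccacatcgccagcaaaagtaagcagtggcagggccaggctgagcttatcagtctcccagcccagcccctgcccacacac
Apoa4, chr9:46240594-46240893, plus strand: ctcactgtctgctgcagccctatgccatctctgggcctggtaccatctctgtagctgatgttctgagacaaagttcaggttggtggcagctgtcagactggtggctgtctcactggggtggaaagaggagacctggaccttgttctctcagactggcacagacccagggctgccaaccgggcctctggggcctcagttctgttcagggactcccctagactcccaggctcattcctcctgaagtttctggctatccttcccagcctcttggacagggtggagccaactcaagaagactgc
Apoa5, chr9:46268358-46268657, plus strand: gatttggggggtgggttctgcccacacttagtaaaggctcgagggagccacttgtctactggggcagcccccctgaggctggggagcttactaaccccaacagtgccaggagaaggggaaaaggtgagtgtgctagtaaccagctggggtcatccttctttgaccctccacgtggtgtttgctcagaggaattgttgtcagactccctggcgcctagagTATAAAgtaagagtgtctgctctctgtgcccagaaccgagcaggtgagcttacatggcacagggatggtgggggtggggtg
Apob, chr12:7977427-7977726, plus strand: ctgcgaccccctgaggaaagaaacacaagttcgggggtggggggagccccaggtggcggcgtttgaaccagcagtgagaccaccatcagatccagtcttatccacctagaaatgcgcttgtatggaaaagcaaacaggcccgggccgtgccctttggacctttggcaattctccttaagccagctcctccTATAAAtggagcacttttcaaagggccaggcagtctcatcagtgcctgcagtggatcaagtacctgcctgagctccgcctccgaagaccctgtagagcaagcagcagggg
The Apoa1 and Apoa4 windows hold none of the 7 motifs, and those of Apoa5 and Apob hold TATAAA, which starts 31 and 60 bases before the transcription start of the window. For Apob that start lies inside the gene, downstream of the gene start listed above (chr12:7977629). RefSeq windows were matched for 8 of the 10 genes, all but Apoc1 and Apoc3, with 12 windows in all. TATAAA occurs in 5 of the 12 windows, which belong to 4 of these genes (Apoa2, Apoa5, Apob and Apoe), and in 13.6% of 32851 promoters. The Apoa5 windows overlap and hold the same site. Relative to the transcription start of its window, TATAAA begins at -212 in Apoa2 and at -100 and -96 in Apoe. AGGTCA occurs in 2 windows (Apoa2 and Apoc2) and in 16.3% of all promoters, CCAAT in 2 windows of Apoa2 and in 37.4%, and GTTAAT in 2 windows (Apoc2 and Apoe) and in 7.1%. TGACCTTTG, TTCNNNGAA and GGANTTTCC occur in no window of the 8 genes and in 0.478%, 8.3% and 1.25% of all promoters. A match is a string of letters and not a measured binding site.

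The 10 mRNAs together made up 115719 to 119608 TPM in the WT saline livers, a mean of 11.7% of all TPM, and 13.3 to 15.7% in KO saline. After ConA they took 5.12 to 7.9% in WT livers and 4.99 to 6.32% in KO livers. The saline and ConA livers did not overlap in either genotype, and neither did the WT and KO livers given saline, while the WT and KO livers given ConA did. By mean level over all 14 libraries, Apoa2, Apoe, Apoc1 and Apoa1 ranked at 3, 4, 8 and 10 of the 17656 genes and Apoc3 at 19. Apoa5 ranked at 128, Apoa4 at 255, Apob at 475, Apom at 720 and Apoc2 at 841.

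**Figure D1:**
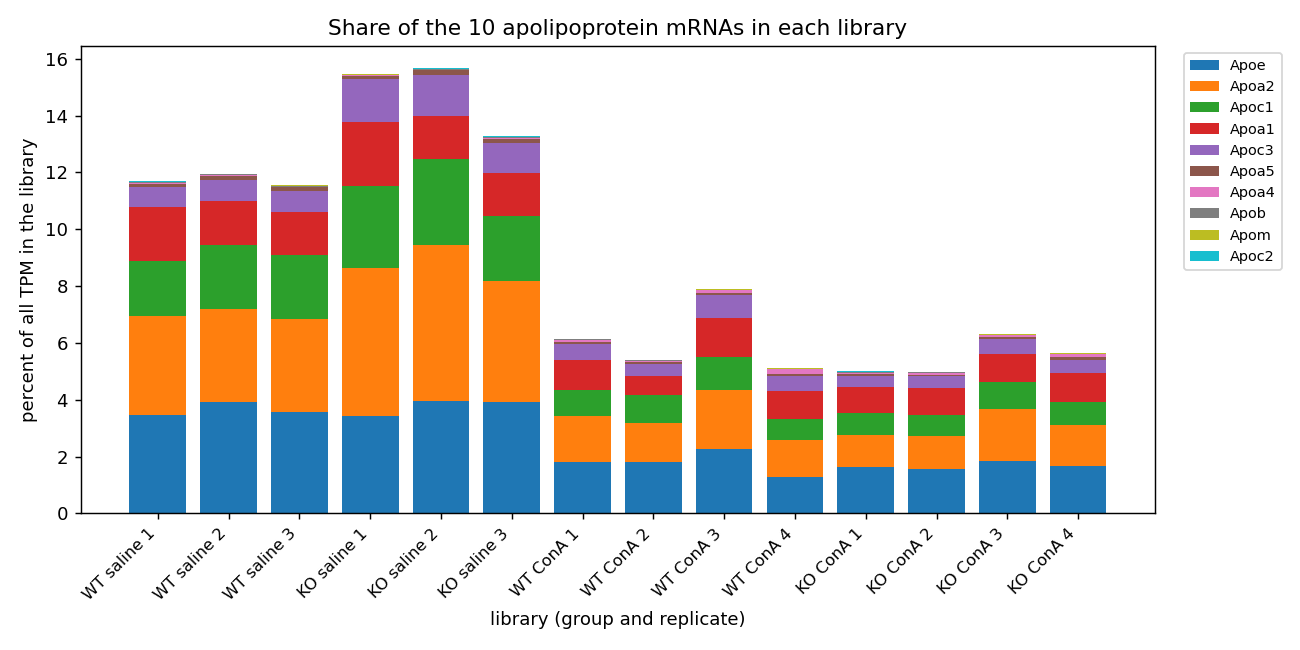
The bars give, for each of the 14 libraries, the summed TPM of the 10 apolipoprotein mRNAs as a percent of all TPM in that library, from 0, split by gene. The 3 KO saline bars reach 13.3 to 15.7%, the 3 WT saline bars have a mean of 11.7%, and the 8 ConA bars 4.99 to 7.9%.

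In WT saline livers the order of mean levels was Apoe, Apoa2, Apoc1, Apoa1, Apoc3, Apoa5, Apob, Apoa4, Apom and Apoc2, and only Apoe and Apoa2, and Apob and Apoa4, overlapped as neighbours. In KO saline, Apoa2 stood above Apoe without overlap, with means of 49860 and 37640 TPM against 33530 and 36430 in WT saline. In WT ConA livers each of the 4 most abundant mRNAs (Apoe, Apoa2, Apoa1 and Apoc1) overlapped with the next in order, which for Apoc1 was Apoc3, and Apoa4 stood sixth with a mean of 853.3 TPM, overlapping Apoa5 below it. In KO ConA, Apoa5 came before Apoa4, again with overlap.

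Differences were tested on the log2(TPM + 1) scale by limma, and calls were made at an adjusted p under 0.05 (Benjamini-Hochberg over all genes tested). The ConA comparisons and the saline comparison share their saline livers. After ConA, 7 of the 10 mRNAs were lower and none higher in WT livers, and 7 were lower and 3 higher in KO livers. Apoa1, Apoa2, Apoa5, Apoc1, Apoc2 and Apoe fell in both genotypes, Apom fell in WT livers and rose in KO livers, and Apoc3 fell and Apoa4 and Apob rose in KO livers. The groups did not overlap for 7 of the 10 in WT livers, all lower, and for 8 in KO livers, as for 58.0% of all genes (34.7% lower) and 64.3%. The background of calls was high as well. In WT ConA against WT saline 53.0% of 10768 genes were called, 31.0% lower and 22.0% higher, and in KO ConA against KO saline 64.6% of 10988 genes were called, 30.7% lower and 33.9% higher. The median log2 fold change of the 10 was -0.64 in WT livers, beside -0.072 over all genes tested, and -0.76 in KO livers, beside 0.069.

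**Figure D2:**
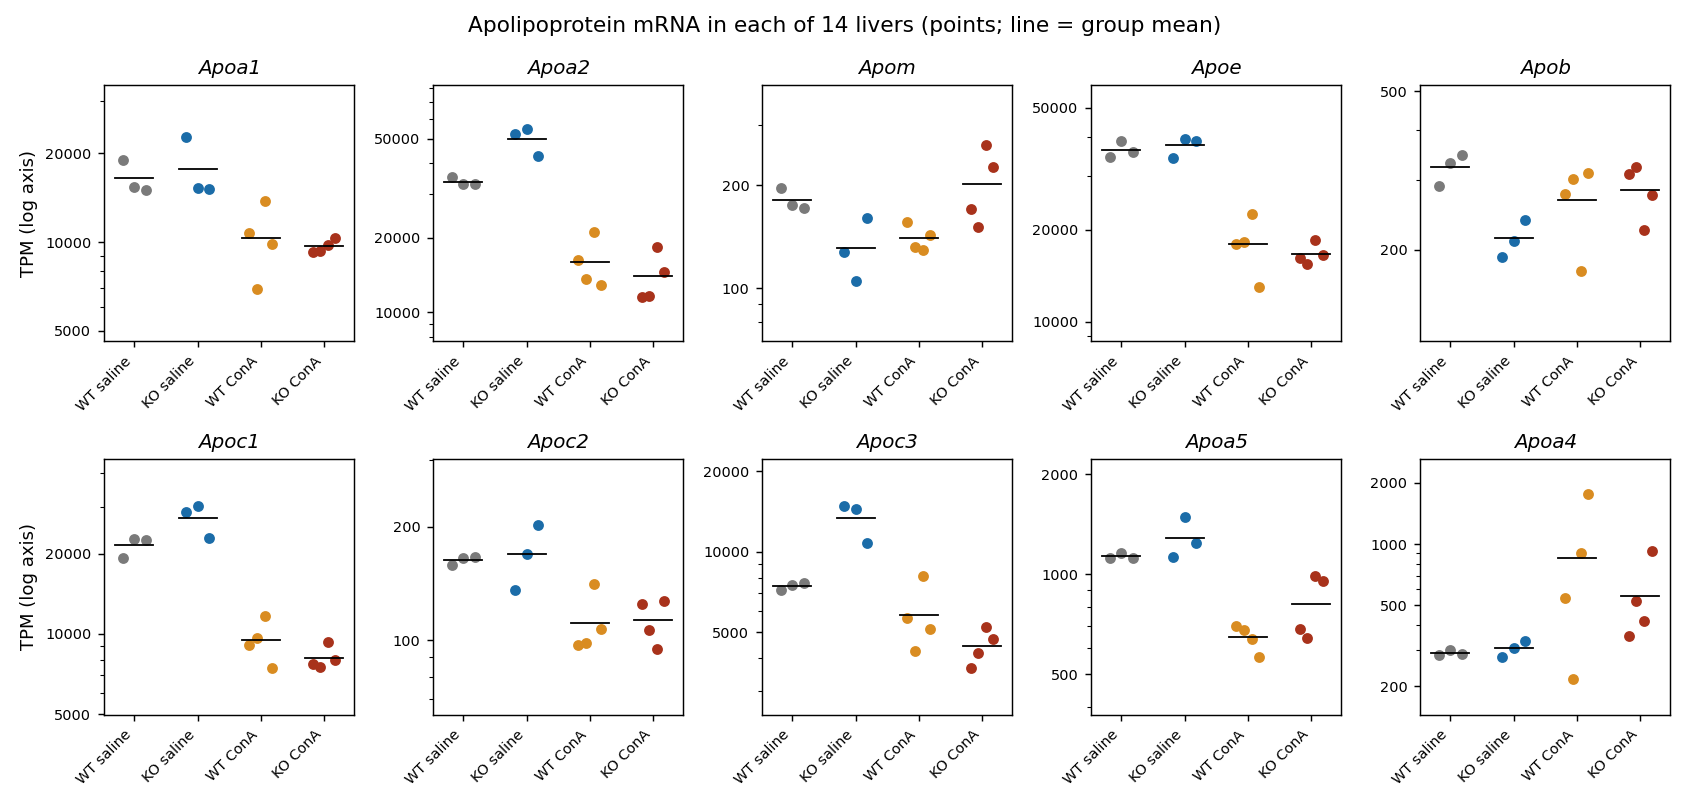
Each point is the TPM of 1 liver on a log axis, in 1 panel per apolipoprotein, with the 4 groups along the x axis and a line at the group mean. Apoa2, Apoc1 and Apoe are lower in all 8 ConA livers than in all 6 saline livers, while the 4 WT ConA livers spread from 216 to 1755 TPM in Apoa4.

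Apoa1, the main protein of HDL and the acceptor of cellular cholesterol, had 19030.3, 15371 and 15029 TPM in the WT saline livers and 10732, 6914, 13723 and 9818 in WT ConA. All 4 ConA livers were below all 3 saline livers, with a log2 fold change of -0.71 (SE 0.22, limma adjusted p = 0.0212). In KO saline it had 22719, 15303 and 15142 TPM and in KO ConA 9272, 9359, 9785 and 10329, again without overlap, with a log2 fold change of -0.85 (SE 0.18, limma adjusted p = 0.00147). The KO ConA livers were close together, with a coefficient of variation of 4.99%, against 27.2% in WT ConA. The WT call did not hold without WT saline replicate 1, which had the highest value (-0.60, limma adjusted p = 0.0792), nor with TPM rescaled by median ratios (-0.61, limma adjusted p = 0.109) or without a filter on TPM (limma adjusted p = 0.102).

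Apoa2, the second main HDL protein, had 34948, 32935 and 32708 TPM in WT saline and 16209.7, 13594, 20995 and 12949 in WT ConA. The groups did not overlap, with a log2 fold change of -1.10 (SE 0.18, limma adjusted p = 0.000693). It had 52075, 54804 and 42693 TPM in KO saline, where it was the most abundant of the 10, and 11489.9, 11600.04, 18338 and 14557 in KO ConA. The KO ConA levels were 0.277 times those of KO saline (log2 fold change -1.85, SE 0.21, limma adjusted p = 1.76e-05). Per library, Apoa1 stood at a mean of -1.03 log2 units relative to Apoa2 in WT saline, -1.51 in KO saline, -0.65 in WT ConA and -0.51 in KO ConA.

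Apom, which binds sphingosine 1-phosphate on HDL, was among the least abundant members. It had 195, 175 and 172 TPM in WT saline and 156, 132, 129 and 143 in WT ConA, without overlap, and a log2 fold change of -0.37 (SE 0.12, limma adjusted p = 0.0279). In KO livers the direction was the opposite, from 128, 105 and 161 TPM in KO saline to 170.3, 151, 261 and 226 in KO ConA, where the highest saline liver (160.6) lay above the lowest ConA liver (151.4). The log2 fold change was 0.61 (SE 0.20, limma adjusted p = 0.0210). Both calls were close to the threshold. The WT call did not hold without WT saline replicate 1, 2 or 3 or WT ConA replicate 2 (limma adjusted p = 0.108, 0.0786, 0.0695 and 0.0599), and the KO call did not hold without KO saline replicate 1 or 2 or KO ConA replicate 4 (limma adjusted p = 0.0543, 0.0947 and 0.0519). Rescaling by median ratios also ended both (limma adjusted p = 0.134 and 0.104), and so did the average of WT saline replicates 2 and 3 (limma adjusted p = 0.0726) and the fit of all 14 libraries (0.0947) for the WT call and no filter on TPM (0.0753) for the KO call.

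Apoe, the ligand through which remnant particles are taken up and a gene that macrophages also express, had 34480.2, 39035 and 35765 TPM in WT saline and 18018, 18213, 22534 and 12978 in WT ConA. It had 34346, 39524 and 39061 TPM in KO saline and 16159.9, 15512, 18569.6 and 16538 in KO ConA. In neither genotype did the groups overlap, and the log2 fold changes were -1.05 (SE 0.18, limma adjusted p = 0.00115) in WT livers and -1.17 (SE 0.16, limma adjusted p = 7.03e-05) in KO livers. Of the 8 markers of Kupffer cells, the resident liver macrophages, 7 were called lower after ConA in WT livers and 4 in KO livers, beside 31.0% and 30.7% of all genes. These markers summed to 92.7 to 154.9 TPM in WT and 42.4 to 95.1 in KO livers given saline, and 13.9 to 53.0 in WT and 9.76 to 41.1 in KO livers given ConA. Their part in the fall of Apoe was not tested.

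Apob, the non-exchangeable protein of VLDL and LDL, had 289.9, 330.1 and 346 TPM in WT saline and 277, 301, 177 and 313 in WT ConA, where 2 of 4 livers lay within the saline range and replicate 3 was the lowest. Its log2 fold change in WT livers, -0.30 (SE 0.20, limma adjusted p = 0.230), did not pass the test. In KO livers it went from 192, 211 and 238 TPM in saline to 310.4, 323, 224 and 274 after ConA, where replicate 3 was again the lowest and the only one to overlap the saline livers. The log2 fold change was 0.39 (SE 0.14, limma adjusted p = 0.0334), which passed the test and was a rise. The call did not hold without KO saline replicate 1 or 2 or KO ConA replicate 1, 2 or 4 (limma adjusted p from 0.0559 to 0.121), nor without a filter on TPM (0.0703) or with all 14 libraries in the fit (0.0713). Relative to Apoe in the same library, Apob stood at a mean of -6.82 log2 units in WT saline, -7.46 in KO saline, -6.08 in WT ConA and -5.89 in KO ConA. The Apob transcript, at 13934 bases, was the longest of the 10, and those of Apoa2 (518 bases) and Apoc1 (532 bases) were the shortest.

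Apoc1, which inhibits lipoprotein lipase and the uptake of remnants, had 19278, 22646 and 22466 TPM in WT saline and 9123, 9689.96, 11644 and 7445 in WT ConA. It had 28709, 30242 and 22834 TPM in KO saline and 7728, 7527, 9348 and 7966 in KO ConA. The ConA livers of both genotypes lay below all saline livers, and the log2 fold changes were -1.19 (SE 0.16, limma adjusted p = 0.000282) in WT livers, the largest fall of the 10 there, and -1.74 (SE 0.16, limma adjusted p = 5.13e-06) in KO livers. Its share of the summed 10 mRNAs was 16.5 to 19.4% in WT and 17.2 to 19.3% in KO livers given saline, and 14.5 to 17.9% in WT and 14.1 to 15.5% in KO livers given ConA.

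Apoc2, the activator that lipoprotein lipase needs, had 159, 165 and 166 TPM in WT saline and 96.8, 98.5, 141 and 107 in WT ConA, without overlap, and a log2 fold change of -0.57 (SE 0.15, limma adjusted p = 0.0103). In KO livers it went from 136, 169 and 202 TPM in saline to 125, 107, 95 and 127 after ConA, also without overlap, with a log2 fold change of -0.56 (SE 0.16, limma adjusted p = 0.00829). The WT call did not hold with TPM rescaled by median ratios (-0.47, limma adjusted p = 0.105). The split of reads between Apoc2 and Gm44805 is uncertain, so their sum was taken after the data were seen. Whether Gm44805 shares stretches with further genes, such as the neighbouring Apoc4, was not examined. The sum is therefore not a corrected level of Apoc2. The sum was 345.2 to 360.2 TPM in WT and 453.4 to 539.1 in KO livers given saline, and 208.1 to 320.5 in WT and 204.8 to 254.6 in KO livers given ConA. Its log2 fold change was -0.54 in WT livers (limma adjusted p = 0.0159) and -1.12 in KO livers (limma adjusted p = 1.33e-05).

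Apoc3, an inhibitor of lipoprotein lipase and of remnant uptake, had 7166, 7495 and 7658 TPM in WT saline and 5629, 4247, 8124 and 5132 in WT ConA. WT ConA replicate 3 lay above all 3 saline livers and the other 3 below them, and the log2 fold change of -0.40 (SE 0.20, limma adjusted p = 0.121) did not pass the test. Without WT ConA replicate 3 it was -0.58 and passed (limma adjusted p = 0.00434). In KO livers it went from 14879, 14514 and 10752 TPM in saline to 3668, 4180.01, 5204 and 4706 after ConA. Here all ConA livers were far below the saline livers, at 0.332 times their level (log2 fold change -1.59, SE 0.17, limma adjusted p = 1.66e-05).

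Apoa5, a low-abundance plasma protein that promotes triglyceride clearance, had 1121, 1157 and 1123 TPM in WT saline and 700.3, 680.3, 640.5 and 566 in WT ConA. It had 1132, 1487 and 1241 TPM in KO saline and 683, 641, 986 and 958 in KO ConA. No ConA liver overlapped the saline livers of its genotype, and the log2 fold changes were -0.81 (SE 0.12, limma adjusted p = 0.000352) in WT and -0.67 (SE 0.18, limma adjusted p = 0.00653) in KO livers. Apoc3 and Apoa5 lie on either side of Apoa4 and act on lipoprotein lipase in opposite directions. Relative to Apoc3 in the same library, Apoa5 under saline stood at -2.77 to -2.68 log2 units in WT and -3.72 to -3.12 in KO livers, and after ConA at -3.67 to -2.64 in WT and -2.70 to -2.30 in KO livers.

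Apoa4, which is made mainly in the intestine and, in mice, also in the liver, was the one member whose mean was higher after ConA in both genotypes. It had 284, 300.1 and 286 TPM in WT saline and 542, 216, 899 and 1755 in WT ConA. Replicate 4 was highest and replicate 2 lay below all saline livers, a span of 8.12 times, and the log2 fold change of 1.18 (SE 0.56, limma adjusted p = 0.109) did not pass the test. Without WT ConA replicate 2 it was 1.71 and passed (limma adjusted p = 0.0058). In KO livers Apoa4 went from 278, 309 and 334 TPM in saline to 353, 523, 416 and 921 after ConA, without overlap, with a log2 fold change of 0.75 (SE 0.27, limma adjusted p = 0.0290). That call did not hold without KO saline replicate 1, 2 or 3 (limma adjusted p = 0.0886, 0.0599 and 0.0558), with TPM rescaled by median ratios (0.0782), without a filter on TPM (0.107) or with all 14 libraries in the fit (0.193). The 5 of 7 enterocyte markers in the tables summed to at most 0.24 TPM in every liver, with Alpi and Cdx2 at 0 in all ConA livers.

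The ratio of Apoa4 to Apoa1, neighbours that are read in the same direction, does not depend on how a library is scaled. In WT livers it was -6.07 to -5.68 log2 units under saline and -5.00 to -2.48 after ConA, and in KO livers -6.35 to -5.50 under saline and -4.72 to -3.49 after ConA. In both genotypes every ConA liver was above every saline liver (exact two-sided permutation p = 0.0571 each, the smallest that 4 against 3 livers allow). This ratio was one of 7 that were compared in 4 comparisons, and after adjustment over the 28 tests the p-value was 0.178 (exact permutation, Benjamini-Hochberg). Of the 7 ratios, 6 in KO ConA against KO saline did not overlap, and in WT ConA against WT saline that of Apoa4 to Apoa1 alone did not. Single genes did not overlap in 64.3% and 58.0% of cases in these comparisons. The share over all pairs of genes was not computed, and several of the ratios share a gene. The counts are therefore not read as a difference between the genotypes. In KO saline against WT saline 4 did not overlap (Apoa1 to Apoa2, Apoc3 to Apoc2, Apoa5 to Apoc3 and Apob to Apoe). Of single genes, 42.3% did not overlap there, and this comparison uses the same KO saline livers as KO ConA against KO saline. The ratio of Apoc3 to Apoc2 rests on the uncertain split of reads between Apoc2 and Gm44805. Gm44805 stood at 180.4 to 197.2 TPM in WT saline and 317.3 to 361.2 in KO saline. A ratio of Apoc3 to the sum of Apoc2 and Gm44805 was not tested.

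**Figure D3:**
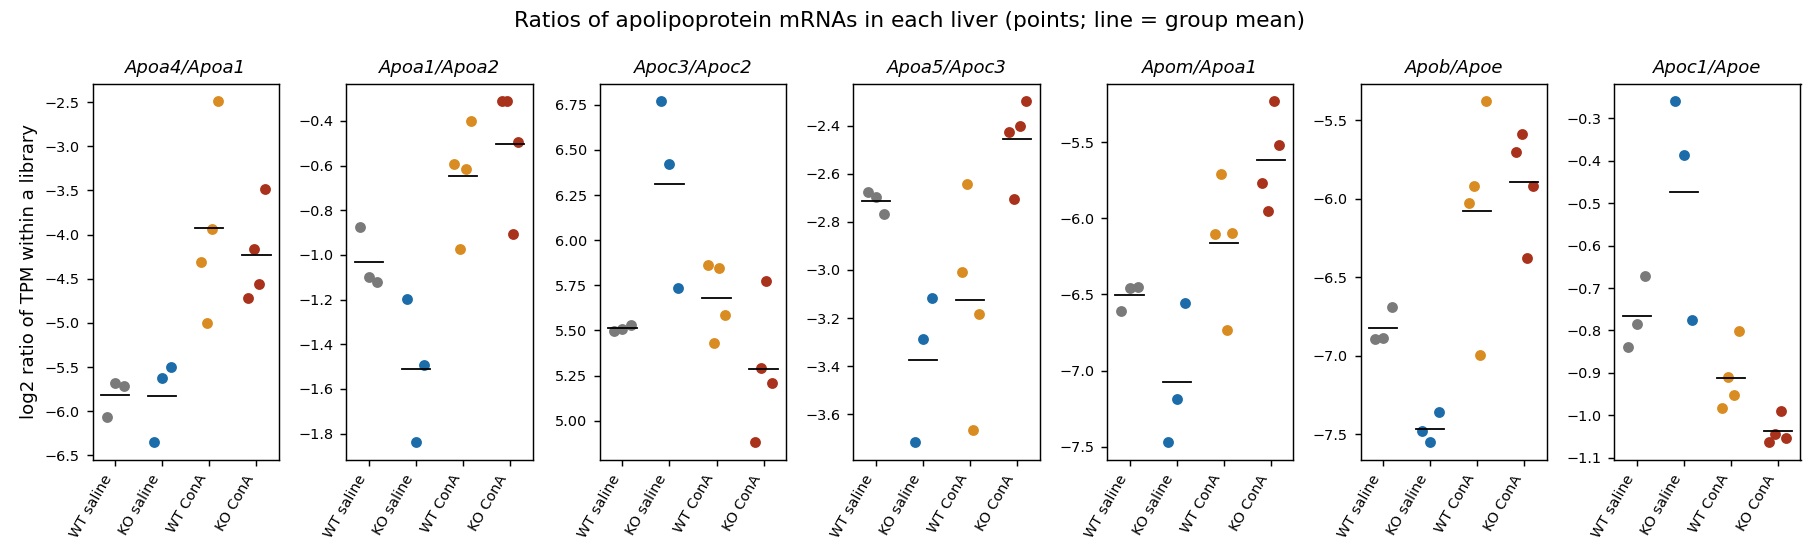
Each point is the log2 ratio of 2 apolipoprotein mRNAs within 1 liver, in 1 panel per ratio, with the 4 groups along the x axis and a line at the group mean. Apoa4 relative to Apoa1 is higher in every ConA liver than in every saline liver, and Apob relative to Apoe is lowest in the 3 KO saline livers, at -7.55 to -7.36.

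In KO saline against WT saline, Apoa2 and Apoc3 were higher and Apob was lower. These 3 of 10 stood beside 19.2% of 10459 genes called, 6.30% higher and 12.9% lower. The median log2 fold change of the 10 was 0.083, beside -0.10 over all genes. Apoc3 was 1.78 times as high in KO saline, with 10752 to 14879 TPM against 7166 to 7658 (log2 fold change 0.83, SE 0.14, limma adjusted p = 0.0181). Apoa2 was 1.48 times as high, with 42693 to 54804 TPM against 32708 to 34948 (log2 fold change 0.56, SE 0.13, limma adjusted p = 0.0302). Apob was 0.664 times as high, with 192 to 238 TPM against 289.9 to 346 (log2 fold change -0.59, SE 0.11, limma adjusted p = 0.0210). In all 3 the groups did not overlap, as in 42.3% of all genes.

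These 3 calls did not hold when the nearly identical WT saline replicates 2 and 3 were counted once. With the pair averaged, the differences were 0.85 in Apoc3, 0.55 in Apoa2 and -0.55 in Apob, and none passed (limma adjusted p = 0.0851, 0.119 and 0.101). None passed without WT saline replicate 2 (limma adjusted p from 0.0852 to 0.114), without WT saline replicate 3 (0.0929 to 0.129) or without KO saline replicate 1 (0.0544 to 0.0830), and without KO saline replicate 2 Apoa2 and Apob did not (0.0718 and 0.0557). Without KO saline replicate 3, Apoc1 (0.46, limma adjusted p = 0.0327) and Apom (-0.63, limma adjusted p = 0.0171) passed as well.

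Among the other 7, Apoc1 and Apom also separated the groups without passing. Apoc1 had a log2 fold change of 0.34 (SE 0.14, limma adjusted p = 0.128) and Apom one of -0.48 (SE 0.15, limma adjusted p = 0.0657). The 95% intervals of the log2 fold change were from -0.35 to 0.52 for Apoa1, from -0.23 to 0.32 for Apoe, from -0.14 to 0.30 for Apoa4, from -0.10 to 0.45 for Apoa5 and from -0.30 to 0.36 for Apoc2, so smaller differences in these were not resolved. The sum of Apoc2 and Gm44805 was higher in KO saline (0.52, limma adjusted p = 0.0204), while Apoc2 alone was at 0.033 (SE 0.14, limma adjusted p = 0.885). Gm44805 stood at 180.4 to 197.2 TPM in the WT and 317.3 to 361.2 in the KO livers given saline. Of the markers of other cells tested between these groups, 1 of 3 for cholangiocytes was called higher in KO saline. For sinusoidal endothelial cells it was 3 of 6, and for stellate cells 2 of 7 (Lrat and Des). Neither Lrat nor Des passed the filter on TPM in WT ConA against WT saline, so both entered this test through KO saline livers. These 2 calls are not read as a result. No marker of these kinds was called lower, and of all genes 6.30% were called higher and 12.9% lower. Of the 8 hepatocyte markers, Serpina1a was called higher and Cyp2e1 lower, and of the 8 Kupffer cell markers none was called by limma. All 8 log2 fold changes of the Kupffer cell markers were below 0, from -0.95 in Cd5l to -0.36 in C1qa. Their median was -0.56, beside -0.10 over all genes, and the share of all genes below 0 was not computed. These values are not read as a result. Stellate cell markers summed to 16.2 to 66.4 TPM in WT saline and 60.3 to 104.8 in KO saline, cholangiocyte markers to 3.97 to 5.42 and 6.17 to 15.4, and endothelial markers to 15.1 to 24.5 and 24.9 to 43.9, and their part was not tested.

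**Figure D4:**
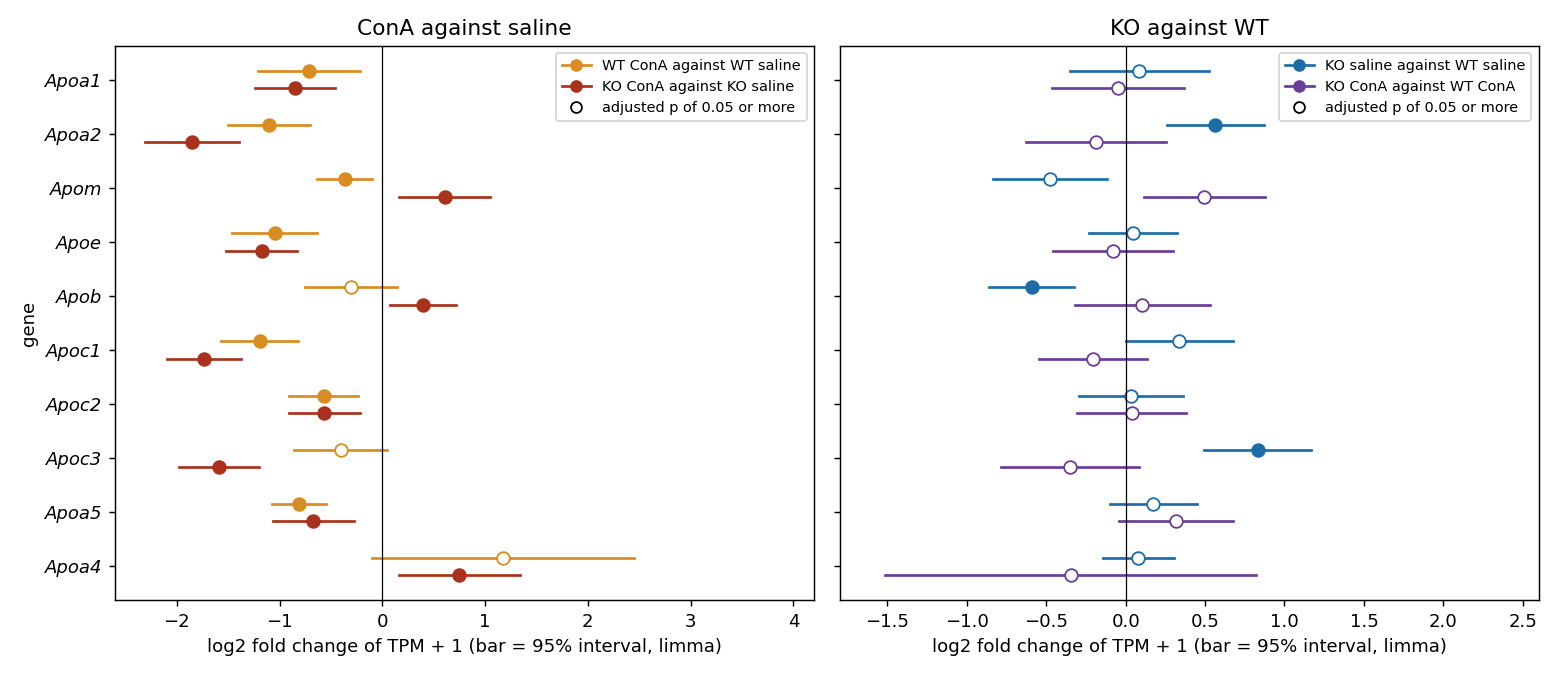
Points give the log2 fold change of TPM + 1 for each apolipoprotein and bars its 95% interval from limma. The left panel compares ConA with saline in WT and KO livers, the right panel KO with WT livers under saline and under ConA. Filled points passed at an adjusted p under 0.05, and in KO ConA against WT ConA no point is filled.

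In KO ConA against WT ConA none of the 10 was called, and none separated the groups. By limma, 0.428% of 10519 genes were called there, 16.7% had an unadjusted p under 0.05 and 10.5% did not overlap. The median log2 fold change of the 10 was -0.063, beside 0.055 over all genes. Apom alone of the 10 was among the genes with an unadjusted p under 0.05 by limma, with 151.4 to 260.9 TPM in KO ConA against 129.2 to 155.7 in WT ConA and a log2 fold change of 0.50 (SE 0.17, limma adjusted p = 0.190). Its 95% interval ran from 0.12 to 0.88. The intervals were from -0.46 to 0.37 for Apoa1, from -0.63 to 0.25 for Apoa2, from -0.46 to 0.30 for Apoe, from -0.32 to 0.53 for Apob and from -0.55 to 0.14 for Apoc1. They were from -0.31 to 0.38 for Apoc2, from -0.79 to 0.081 for Apoc3, from -0.044 to 0.67 for Apoa5 and from -1.52 to 0.82 for Apoa4, the widest of the 10. The ratio of Apoc1 to Apoe was the single ratio that separated these groups, at -1.06 to -0.99 log2 units in KO ConA and -0.98 to -0.80 in WT ConA (exact two-sided permutation p = 0.0286, the smallest possible, and 0.178 after adjustment over 28 tests).

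The difference between the ConA responses of KO and WT livers was tested as an interaction over all 14 libraries, where 4.78% of 11327 genes were called, 2.64% higher and 2.14% lower. Apoc3 and Apom were called, in opposite directions. Apoc3 fell more in KO livers than in WT livers (-1.18, SE 0.27, limma adjusted p = 0.0334 log2 units), and Apom rose in KO livers where it fell in WT livers (0.97, SE 0.25, limma adjusted p = 0.0435). Apoa2 (-0.75, SE 0.27, limma adjusted p = 0.111), Apob (0.70, SE 0.26, limma adjusted p = 0.118) and Apoc1 (-0.54, SE 0.22, limma adjusted p = 0.147) had an unadjusted p under 0.05 by limma, as did 25.3% of all genes. For Apoa1, Apoe, Apoc2 and Apoa5 the intervals ran from -0.75 to 0.48, from -0.61 to 0.36, from -0.47 to 0.48 and from -0.33 to 0.61, and for Apoa4 from -1.91 to 1.06. The interaction compares the same KO saline and WT saline libraries that gave the saline differences above.

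Both interaction calls depended on single libraries. The Apoc3 value ran from -1.33 to -1.01 with each library left out in turn and did not pass without WT saline replicate 2 or 3, KO saline replicate 1 or 2, or KO ConA replicate 1, 2 or 4 (limma adjusted p from 0.0517 to 0.104). That of Apom ran from 0.82 to 1.13 and did not pass without any one WT saline library, KO saline replicate 1 or 2, WT ConA replicate 2 or 3, or KO ConA replicate 4 (limma adjusted p from 0.0547 to 0.110). With WT saline replicates 2 and 3 averaged the adjusted p by limma was 0.102 for Apoc3 and 0.110 for Apom. After rescaling by median ratios, which removed a median interaction of 0.14 log2 units over all genes, it was 0.0773 (-1.32) and 0.133 (0.83), and without a filter on TPM it was 0.0693 and 0.0669. With WT ConA replicate 3 and KO ConA replicate 3 both left out, an alternative chosen after the data were seen, 4 of the 10 passed by limma: Apoc3 (-1.09, adjusted p = 0.0113), Apom (0.80, 0.0415), Apoa2 (-0.75, 0.0277) and Apob (0.62, 0.0251). Apoa2 also passed without KO ConA replicate 3 alone (-0.89, limma adjusted p = 0.0463).

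Of 16 genes listed for VLDL assembly and secretion, 9 were lower and 4 higher after ConA in WT livers, and 8 were lower and 4 higher in KO livers, beside 31.0% and 30.7% of all genes called lower and 22.0% and 33.9% called higher. The list holds Acat2, which was called lower in both genotypes and is not specific to VLDL, and Soat2, which was called in neither. Cideb, which lipidates VLDL, went from 276.7 to 289.2 TPM in WT saline to 67.6 to 113.1 in WT ConA (log2 fold change -1.77, SE 0.17, limma adjusted p = 3.59e-05), and in KO livers it changed by -2.39 log2 units (SE 0.12, limma adjusted p = 5.42e-08). Sar1b, a GTPase of the vesicles that leave the endoplasmic reticulum, went from 227.8 to 300.8 TPM to 75.5 to 101.1 in WT livers (log2 fold change -1.54, SE 0.15, limma adjusted p = 3.63e-05) and changed by -1.36 log2 units (SE 0.12, limma adjusted p = 2.72e-06) in KO livers. Surf4, a cargo receptor for lipoproteins, rose from 137.4 to 145.8 TPM to 235.8 to 274.7 in WT livers (log2 fold change 0.84, SE 0.11, limma adjusted p = 0.000203) and to 218.5 to 285.5 in KO ConA. Mttp, the transfer protein that loads lipid onto Apob, was among the genes called lower in both genotypes.

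For HDL assembly and remodelling, 7 of 11 genes tested were lower in both genotypes, beside 31.0% of all genes in WT and 30.7% in KO livers. Abca1, the transporter that lipidates Apoa1, was higher in both, where 22.0% and 33.9% of all genes were called higher. Scarb1, the HDL receptor, was called higher in KO livers. The transporters Abcg8 and Abcg5, which export sterols into bile, fell from 25.3 to 28.8 TPM to 2.86 to 6.52 (log2 fold change -2.38, SE 0.23, limma adjusted p = 3.29e-05) and from 51.0 to 53.4 TPM to 7.01 to 14.3 (log2 fold change -2.19, SE 0.22, limma adjusted p = 3.69e-05) in WT livers. In KO livers they changed by -1.63 log2 units (SE 0.19, limma adjusted p = 2.63e-05) and -1.37 (SE 0.13, limma adjusted p = 6.74e-06). Pon1, an HDL-bound esterase, fell from 1184 to 1564 TPM to 506.3 to 676.4 (log2 fold change -1.22, SE 0.15, limma adjusted p = 0.000131) in WT livers and changed by -0.76 log2 units (SE 0.11, limma adjusted p = 0.000123) in KO livers.

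Of 10 genes for lipoprotein lipase and its regulators, 6 were lower and 1 (Sel1l) higher in WT livers, and 5 were lower and none higher in KO livers. The shares of all genes were 31.0% lower and 22.0% higher in WT livers, and 30.7% and 33.9% in KO livers. Angptl8, an inhibitor of lipoprotein lipase, fell from 112.8 to 156.8 TPM to 14.2 to 36.6 in WT livers (log2 fold change -2.52, SE 0.29, limma adjusted p = 0.000100), and changed by -1.85 log2 units (SE 0.26, limma adjusted p = 0.000104) in KO livers. Sel1l, an adaptor of endoplasmic reticulum degradation that lipase maturation needs, rose from 18.4 to 20.3 TPM to 36.1 to 51.4 in WT livers (log2 fold change 1.07, SE 0.15, limma adjusted p = 0.000331), and in KO livers the log2 fold change was 0.64 (SE 0.35, limma adjusted p = 0.131). Pcsk6, a protease that cleaves lipases, fell in WT livers (log2 fold change -0.93, SE 0.14, limma adjusted p = 0.000427) and changed by -0.52 log2 units (SE 0.16, limma adjusted p = 0.0137) in KO livers.

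Of the receptors and uptake genes, 6 of 12 tested were lower and 2 higher in WT livers, Olr1 among the latter, and 4 of 13 were lower and 3 higher in KO livers, Sdc1 and Olr1 among the latter. Beside them, 31.0% of all genes were called lower and 22.0% higher in WT livers, and 30.7% and 33.9% in KO livers. Olr1 passed the filter on TPM through the ConA livers alone, so its calls against saline are not read as a result. Lrpap1, a chaperone of lipoprotein receptors, changed by -0.82 log2 units (SE 0.12, limma adjusted p = 0.000312) in WT and -0.68 (SE 0.14, limma adjusted p = 0.00140) in KO livers. Olr1, a receptor for oxidised LDL on endothelial and myeloid cells, was at 0.03 TPM or less in all 6 saline livers, and after ConA at 2.97 to 8.29 in the WT and 16.1 to 30.1 in the KO livers. Of 12 receptor and uptake genes tested in KO ConA against WT ConA, Olr1 alone was called (log2 fold change 1.96, SE 0.31, limma adjusted p = 0.0369), beside 0.428% of 10519 genes. The summed monocyte and neutrophil markers after ConA were 320.4 to 559.5 TPM in the WT and 411.1 to 948.3 in the KO livers, with their part not tested.

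Of 23 regulators of apolipoprotein genes tested, 12 were lower and 1 (Cebpb) higher in WT livers, and 10 were lower and 4 (Rora, Foxo1, Cebpb and Onecut1) higher in KO livers. Among all genes tested, 31.0% were lower and 22.0% higher in WT livers, and 30.7% and 33.9% in KO livers. The coactivator Ppargc1b stood at 1.75 to 2.61 TPM in WT saline and 0.06 to 0.15 in WT ConA, and since it passed the filter on TPM through the saline livers alone, its fold and test are left out. It is still among the 12 and 10 genes counted as lower. Esrra, a nuclear receptor of mitochondrial genes, fell from 23.9 to 24.6 TPM to 6.37 to 8.95 (log2 fold change -1.51, SE 0.14, limma adjusted p = 2.81e-05) in WT livers and changed by -1.73 log2 units (SE 0.17, limma adjusted p = 5.88e-06) in KO livers. Mlxipl, the carbohydrate response factor that drives Apoc3, fell from 61.7 to 67.7 TPM to 21.1 to 27.0 in WT livers (log2 fold change -1.39, SE 0.13, limma adjusted p = 2.87e-05) and to 13.4 to 19.2 in KO ConA (log2 fold change -1.99, SE 0.16, limma adjusted p = 1.33e-06 against KO saline).

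Apob mRNA is edited in mouse liver by Apobec1 with a cofactor, A1cf or Rbm47, to give the short form of the protein. A1cf fell from 38.0 to 47.2 TPM to 2.69 to 5.87 in WT livers (log2 fold change -3.05, SE 0.24, limma adjusted p = 9.79e-06) and changed by -2.71 log2 units (SE 0.16, limma adjusted p = 2.09e-07) in KO livers. Rbm47 changed by -0.76 log2 units (SE 0.15, limma adjusted p = 0.00269) and -1.02 (SE 0.18, limma adjusted p = 0.000433). Apobec1 rose from 4.59 to 5.39 TPM to 8.55 to 16.5 in WT livers (log2 fold change 1.21, SE 0.21, limma adjusted p = 0.000976) and changed by 1.66 log2 units (SE 0.16, limma adjusted p = 5.90e-06) in KO livers. Editing itself was not measured by gene totals. Of the 6 genes of this list, 1 was higher and 2 lower in WT livers, and 3 (Apobec1, Syncrip and Hnrnpab) were higher and 2 lower in KO livers. For all genes the shares were 22.0% higher and 31.0% lower in WT livers, and 33.9% and 30.7% in KO livers.

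Among 14 further apolipoprotein genes, 10 were tested in WT livers, where 3 were lower and 1 (Apol10b) higher, and 11 in KO livers, where 5 were lower and 3 (Apol6, Apol10b and Clu) higher. Shares over all genes were 31.0% lower and 22.0% higher in WT livers, and 30.7% and 33.9% in KO livers. Apoh, a phospholipid-binding plasma protein, fell from 4001 to 4421 TPM to 2159 to 2647 in WT livers (log2 fold change -0.88, SE 0.12, limma adjusted p = 0.000275) and changed by -1.05 log2 units (SE 0.13, limma adjusted p = 4.22e-05) in KO livers. Apol7a fell from 76.0 to 116.9 TPM to 4.66 to 10.5 (log2 fold change -3.68, SE 0.29, limma adjusted p = 9.88e-06) in WT livers and changed by -3.29 log2 units (SE 0.18, limma adjusted p = 9.47e-08) in KO livers. Apol10b went from at most 0.11 TPM in WT saline to 3.38 to 13.4 in WT ConA, and since it passed the filter on TPM through the ConA livers alone, its fold and test are left out. It is still among the genes counted as higher in both genotypes. Apol6 did not pass the filter on TPM between the saline groups or between the ConA groups. Its call in KO livers is therefore not read as a result, though it is counted above. Apoc4, which lies between Apoc2 and Apoc1, was named after its values were seen. It had 3108 to 3431 TPM in WT and 4034 to 5701 in KO livers given saline, and 1076 to 1856 in WT and 846.2 to 1110 in KO livers given ConA, and it was called higher in KO saline, lower after ConA in both genotypes, and lower in the interaction. In KO ConA against WT ConA, Apol9b was the single gene called of the 11 tested, and it was lower. Of all 10519 genes tested there, 0.428% were called.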

How the data were processed

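RNA of 14 mouse livers, 1 library each, was sequenced. The deposited tables hold TPM per gene, made by the authors, each a share of the library's total. The submitters' processing notes name Bowtie2, RSEM 1.3.1 and GRCm38.p6, while the study's methods name STAR and HTSeq, so the route from reads to TPM is uncertain. TPM keep no read depth, and the precision that depth gives is unknown.

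Groups were taken from the sample labels. Genes with a TPM of at least 1 in as many libraries as the smaller group holds were tested on log2(TPM + 1) with limma 3.58.1 (R 4.3.3), with Benjamini-Hochberg adjustment over all genes tested and a threshold of 0.05. Each comparison was fitted on its own groups and the interaction on all 14 libraries. A fold change on this scale understates that of low genes. Ratios were compared by exact two-sided permutation tests (SciPy 1.17.1). On simulated data with 200 genes changed 4-fold, 96% were recovered in WT ConA against WT saline (10495 genes), 97% in KO ConA against KO saline (10680), 98% in KO saline against WT saline (10320) and 98.5% in KO ConA against WT ConA (10373).

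The members and gene lists were chosen with earlier results of these data known. Named genes were the 10 members and, per list, the 3 with the smallest p in WT ConA against WT saline. Some items that this rule covers are not reported here. Any other gene was named after its values were seen. The labels describe the replicates as independent mice.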

Additional observations from a re-analysis of the deposited data

Results flagged for a closer look

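The response to ConA differed between KO and WT livers, by a test of the difference itself, for 2 of the 10 apolipoproteins, beside 4.78% of 11327 genes. For Apoc3 the interaction was -1.18 log2 units (limma adjusted p = 0.0334) and for Apom 0.97 (limma adjusted p = 0.0435). Neither passed with WT saline replicates 2 and 3 averaged, after rescaling by median ratios or without a filter on TPM, and each was lost without any one of several libraries. In the 20 groups of 4 livers that were examined for a liver far from the others, 0 passed Dixon's 95% limit.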

How the results depend on the processing

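Counts of called apolipoproteins moved by more than 1.5 times as follows. With TPM rescaled by median ratios, 4 instead of 7 were called in WT ConA against WT saline and 0 instead of 2 in the interaction. With a log2 fold change of at least 1 required, the counts were 3, 4, 0 and 1 for WT ConA, KO ConA, KO saline and the interaction. Without a filter on TPM they were 0 of 3 in KO saline against WT saline and 0 in the interaction, as with WT saline replicates 2 and 3 averaged. A fit of all 14 libraries called 1 in KO saline. Leaving out WT ConA replicate 3 and KO ConA replicate 3, chosen after the data were seen, gave 4 in the interaction. With each library left out in turn the counts were 5 to 8, 7 to 10, 0 to 5, 0 and 0 to 3, and 12 to 17 ratios did not overlap. KO ConA against WT ConA gave 0 in every setting, while 4 to 618 genes were called in all. Over all genes, KO saline against WT saline gave 2009 calls, 584 without a filter, 284 in the fit of all libraries, 49 with the pair averaged and 173 at the fold limit. The interaction gave 541 calls, 328 without a filter, 28 with the pair averaged, 260 at the fold limit and 1591 without both replicates 3 of ConA.

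The mean summed TPM of WT saline, 117426, was 112705 after rescaling, a shift larger than the spread between its livers.

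The labels share replicate numbers. Deviations of same-numbered WT and KO livers correlated at -0.007, 0.129, 0.405 and 0.115 under ConA and 0.342, 0.229 and -0.002 under saline, so some pairs deviated together, but not every pair was over 0.1 and the numbers were not taken as pairs. A replicate block gave 6, 9, 3, 0 and 2 called apolipoproteins, and over all genes 140 instead of 45 calls in KO ConA against WT ConA and 358 instead of 541 in the interaction.

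Directions reversed only in differences that had not passed. In KO ConA against WT ConA, Apoc2 was -0.040 after rescaling and -0.060 summed with Gm44805, and Apoa1 was 0.10 without both replicates 3 of ConA. In the interaction, Apoc2 was -0.13, -0.0050 with the pair averaged and -0.58 summed, and Apoa1 was 0.013, by the same settings. With 1 library left out, KO saline against WT saline ran from -0.11 to 0.19 in Apoa1 and -0.10 to 0.18 in Apoc2. KO ConA against WT ConA ran from -0.22 to 0.11 in Apoa1, -0.88 to 0.13 in Apoa4, -0.081 to 0.21 in Apob, -0.021 to 0.16 in Apoc2 and -0.23 to 0.039 in Apoe. The interaction ran from -0.31 to 0.059 in Apoa1, -0.96 to 0.047 in Apoa4 and -0.14 to 0.14 in Apoc2. The cause was not tested.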
